A study of Mus musculus with 4 samples.

Results

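The nuclear genes for the subunits of the oxidative phosphorylation (OXPHOS) complexes were examined in immune cells of MC38 tumours. MC38 is a mouse colorectal tumour line. Members were chosen by gene symbol alone, as those beginning with Nduf and a subunit letter and number, Sdha to Sdhd, and those beginning with Uqcr, with Cox and a number from 4 to 8, or with Atp5. Symbols ending in -ps were left out, which dropped 1 of 85 matches. The set held 84 of the 32285 genes in the files, of which 35 belonged to complex I, 4 to complex II, 8 to complex III, 20 to complex IV and 17 to complex V. Tumours had been raised under the skin of 8-week-old mice that were wild type (WT, 2 libraries) or carried a conditional knockout of Trim25 (cKO, 2 libraries), a ubiquitin ligase gene. The series title places the deletion in T cells and names VISTA, an inhibitory receptor, as the protein at issue. Neither the Cre driver nor the number of animals per library is stated in the labels, so every p-value below measures only the spread between these libraries, which may be technical. CD45+ cells were sorted and profiled with droplet 3′ RNA sequencing, in which each captured RNA molecule is counted by a unique molecular identifier (UMI).

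Oxidative phosphorylation takes electrons from NADH at complex I and from succinate at complex II. It passes them through complex III and cytochrome c to complex IV, the oxidase that reduces oxygen, and uses the proton gradient built on the way to make ATP at complex V, the ATP synthase. Most subunits are nuclear-encoded and are imported into the mitochondrion, where they join the few subunits encoded by mitochondrial DNA. Activated lymphocytes need the pathway while they divide, and myeloid cells shift between it and glycolysis.

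Each library held 8533 to 12318 barcodes and 96751399 to 127449324 UMIs, and 8205 to 12092 cells passed the filters on UMIs, genes and mitochondrial share. Members made up 1.10% and 1.28% of the UMIs of the WT libraries and 1.28% and 1.20% of those of the cKO libraries. Any pair of libraries shared 42 to 59 cell barcodes. The targeted gene was still counted in every library. In CD8, conventional CD4 and regulatory T cells pooled ("all T cells"), Trim25 stood at 66.5 and 63.9 CPM (the gene's share of all UMIs, scaled to a total of 1000000) in the WT libraries and at 51.7 and 45.5 CPM in the cKO libraries. Its log2 fold change of -0.40 ± 0.11 (SE) did not pass (edgeR adjusted p = 0.269), and a 3′ read need not lie in the deleted part, so it checks the labels only weakly. The labels call the cell type a colorectal tumour line, whereas the cells fell into immune classes. 1 cluster, named fibroblast-like from collagen genes, had Rhox5, a homeobox gene of reproductive tissues, and Col6a1 among its leading genes and only 56.7 to 163 CPM of Ptprc, the gene of CD45, against 1924 to 2052 CPM in macrophages. Whether these are tumour cells that passed the sort was not tested, so the cluster's values are not read as those of an immune class. Class names rest on marker genes and stand for cells that resemble that type.

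The promoters of 3 members are shown first: Cox6a1 and Ndufa4, which passed the genotype test only when a library was left out, and Atp5k, a member of smallest p in conventional CD4 T cells. They are shown because nuclear respiratory factor NRF1 and ETS-family factors such as GABPA are known regulators of OXPHOS genes. RefSeq entries on GRCm38.p6 matched 68 of the 84 members. The printed runs are the 250 bases before the annotated start on the gene's strand. Capitals mark the NRF1 letters GCGCATGCG and the ETS letters CCGGAAG, on either strand; where the NRF1 letters occur on both strands the overlapping runs are both in capitals.
Cox6a1, chr5:115348959-115349208, minus strand: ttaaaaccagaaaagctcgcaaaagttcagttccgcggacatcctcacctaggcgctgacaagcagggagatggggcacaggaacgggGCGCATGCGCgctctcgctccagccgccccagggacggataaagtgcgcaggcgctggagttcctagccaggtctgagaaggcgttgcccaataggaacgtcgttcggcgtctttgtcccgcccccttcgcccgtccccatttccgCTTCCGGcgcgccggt
Atp5k, chr5:108434400-108434649, minus strand: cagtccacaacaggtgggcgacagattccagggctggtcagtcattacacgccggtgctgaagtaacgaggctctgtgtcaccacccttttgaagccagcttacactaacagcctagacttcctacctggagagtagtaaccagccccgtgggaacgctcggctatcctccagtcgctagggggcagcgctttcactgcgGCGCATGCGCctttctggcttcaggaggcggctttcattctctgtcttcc
Ndufa4, chr6:11907451-11907700, minus strand: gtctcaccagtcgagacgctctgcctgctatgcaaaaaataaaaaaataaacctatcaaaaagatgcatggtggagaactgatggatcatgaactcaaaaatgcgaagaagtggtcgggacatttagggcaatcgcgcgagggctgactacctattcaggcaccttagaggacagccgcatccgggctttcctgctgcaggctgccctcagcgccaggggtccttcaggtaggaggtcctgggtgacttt
The NRF1 letters ended 152 bases before the start in Cox6a1 and 40 bases before it in Atp5k. The ETS letters ended 9 bases before the start in Cox6a1. Neither motif occurs in the Ndufa4 run. In the full windows, which also take in 50 bases after the start, the NRF1 letters were in 8 of the 68 matched members (11.8%) and in 1.81% of all 27025 genes with an entry. The ETS letters were in 16 of the 68 (23.5%) against 9.12% of all genes, and the letters AAGATGGCG of YY1, another such factor, in 6 of the 68 (8.82%) against 1.49%. The 3 printed promoters were picked and do not stand for the members of small p. Among other members of smallest p in a class, Uqcrc1 also had the NRF1 letters. Ndufb3, Cox5b, Ndufb4, Atp5d and Ndufs5 had none of the 3 motifs. Both strands were searched for all 3 motifs, and a match is a run of letters, not a bound site. The NRF1 and YY1 letters were shortened after counts with longer forms were seen. Their shares are therefore descriptions and not a test of enrichment.

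Among the 15 classes with at least 20 cells in each library, the summed level of the 84 genes was highest in the fibroblast-like cluster (14869 ± 940 CPM, mean ± SD of 4 libraries), natural killer (NK) cells (14708 ± 696 CPM) and CD8 T cells (14592 ± 795 CPM), and lowest in B cells (7695 ± 574 CPM) and neutrophils (7463 ± 1245 CPM). The highest of these 15 class means was 1.99 times the lowest; mast cells or basophils, with 19 to 34 cells per library, stood lower, at 6629 ± 1104 CPM. NK cells stood at 13804 and 15501 CPM in WT and at 14774 and 14755 CPM in cKO. B cells stood at 7213 and 8527 CPM in WT and at 7565 and 7475 CPM in cKO. No B cell library reached any NK cell library.

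**Figure D1:**
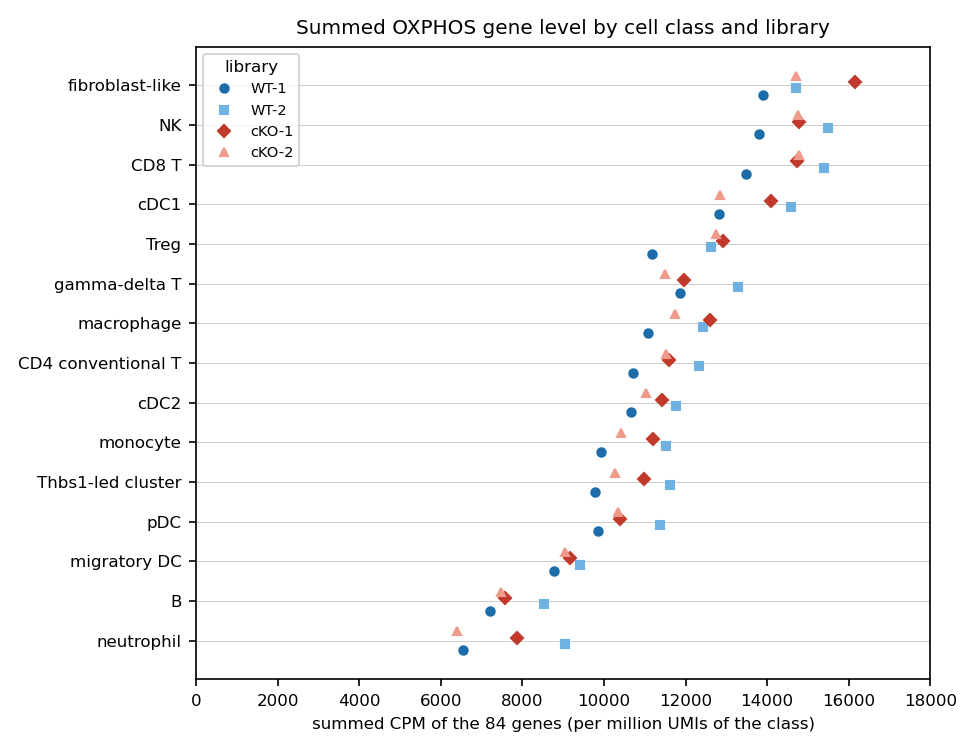
Summed CPM of the 84 OXPHOS genes (x axis) in 15 cell classes (y axis, ordered by mean level relative to the other classes), with 1 point per library. NK and CD8 T cells lie at 13488 CPM or above in every library and B cells at 8527 CPM or below, and WT-2 lies to the right of WT-1 in all 15 classes.

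Between these ends the order was gradual. Conventional dendritic cells of the cDC1 type (13589 ± 895 CPM) came next, then regulatory T cells (Treg, 12366 ± 795), gamma-delta T cells (12149 ± 789), macrophages (11964 ± 700), conventional CD4 T cells (11538 ± 655), cDC2 cells (11216 ± 479) and monocytes (10768 ± 734). A myeloid cluster led by Thbs1, which the markers left unnamed, stood at 10666 ± 806 CPM. Plasmacytoid dendritic cells (pDC, 10495 ± 642 CPM) and migratory dendritic cells (9101 ± 270 CPM) followed. Of the 14 pairs of neighbours in this order, the libraries of only 2 did not overlap, namely pDC above migratory dendritic cells and migratory dendritic cells above B cells. In 7 of the 14 pairs the upper class was higher in all 4 libraries, among them CD8 T cells over cDC1 cells and macrophages over conventional CD4 T cells. These are descriptions of classes drawn from the same 4 libraries, and a share of UMIs falls wherever other genes take up more of them.

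The order depended on what the members were set against. Per 100 UMIs of cytosolic ribosomal protein genes, B cells had 5.28 ± 0.04 member UMIs, NK cells 8.54 ± 0.26, CD8 T cells 9.30 ± 0.13 and monocytes 13.3 ± 0.3, the highest of the 15 classes. NK cells, second by share of UMIs, were thus below monocytes by this ratio. Per 100 UMIs of the mitochondrially encoded subunits, which are made inside the organelle for the same complexes, B cells had 11.1 ± 1.2 and pDC 14.6 ± 1.0, while migratory dendritic cells had 35.2 ± 4.3. The UMI depth also differed between classes, with a median of 2011 UMIs per cell in the fibroblast-like cluster, 3173 in B cells and 12211 in NK cells, and its part in these levels was not tested.

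The make-up of the set varied less between classes than its summed level, but it was not the same in all of them. Complex I genes gave 22.6% (migratory dendritic cells) to 26.3% (neutrophils) of member UMIs, complex II genes 2.57% (fibroblast-like) to 3.63% (B cells), and complex III genes 10.1% (NK) to 12.9% (migratory dendritic cells). Complex IV genes gave 28.5% (B cells) to 32.0% (pDC) and complex V genes 29.1% (pDC) to 33.0% (NK). UMIs at the 3′ end count molecules and were not scaled by gene length.

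Clusters inside a class differed too. Among CD8 T cells, a cluster led by cell-cycle genes (Nusap1, Top2a) stood at 16222 ± 896 CPM. A cluster led by Ifitm1, Cd8a and Pdcd1, the gene of the PD-1 receptor, stood at 14568 ± 872 CPM. One led by Gzmk, a granzyme, stood at 12114 ± 559 CPM. The cycling cluster was above the Ifitm1-led one, and that one above the Gzmk-led one, in each of the 4 libraries. NK cells showed the same rank, with 15928 ± 686 CPM in a cluster led by Mki67, 14928 ± 668 CPM in one led by Gzmc and 13182 ± 713 CPM in one led by Klra4 and Gzma. Median depth moved with it, at 21511, 12444 and 5527 UMIs per cell in the CD8 clusters and at 24792, 21716 and 6586 in the NK clusters, and its part was not tested. An unnamed T cell cluster led by Igfbp4, Lef1 and Ccr7, genes of naive and central memory cells, had 9333 ± 754 CPM. A cycling T cell cluster that was kept out of the named classes because Cd8a exceeded Cd4 in it held 25 to 87 cells per library and stood at 14429 ± 1289 CPM.

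Macrophages split further apart. A cluster led by the complement genes C1qa, C1qb and C1qc had 16906 ± 709 CPM at a median of 2330 UMIs per cell, one led by Itga9 had 11626 ± 625 CPM at 12704 UMIs, and one led by the interferon-induced Slfn4 had 9090 ± 316 CPM at 12363 UMIs. Their libraries did not overlap (15908 to 17494 CPM, 10835 to 12187 CPM and 8642 to 9336 CPM). Cytosolic ribosomal genes had the same order, at 149995 ± 7859, 99152 ± 5473 and 63737 ± 2513 CPM. The order of these clusters is thus one of shares of UMIs and, as for the classes, can depend on what the members are set against. Without the low-depth C1qa-led cluster the macrophage class stood at 11102 ± 602 CPM. The 2 monocyte clusters were closer, at 11578 ± 755 CPM where Adgre4 and Ear2 led and 10246 ± 674 CPM where the interferon-induced Cxcl10 and Rsad2 led.

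Of the 84 members, 75 averaged at least 10 CPM over the 15 classes. Among these, 32 were highest in the fibroblast-like cluster, 23 in NK or CD8 T cells, 8 in cDC1 cells and 5 in gamma-delta T cells. The lowest class was B cells for 27, neutrophils for 26 and migratory dendritic cells for 18. The median range between a gene's lowest and highest class was 1.37 on the log2(CPM + 1) scale.

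**Figure D2:**
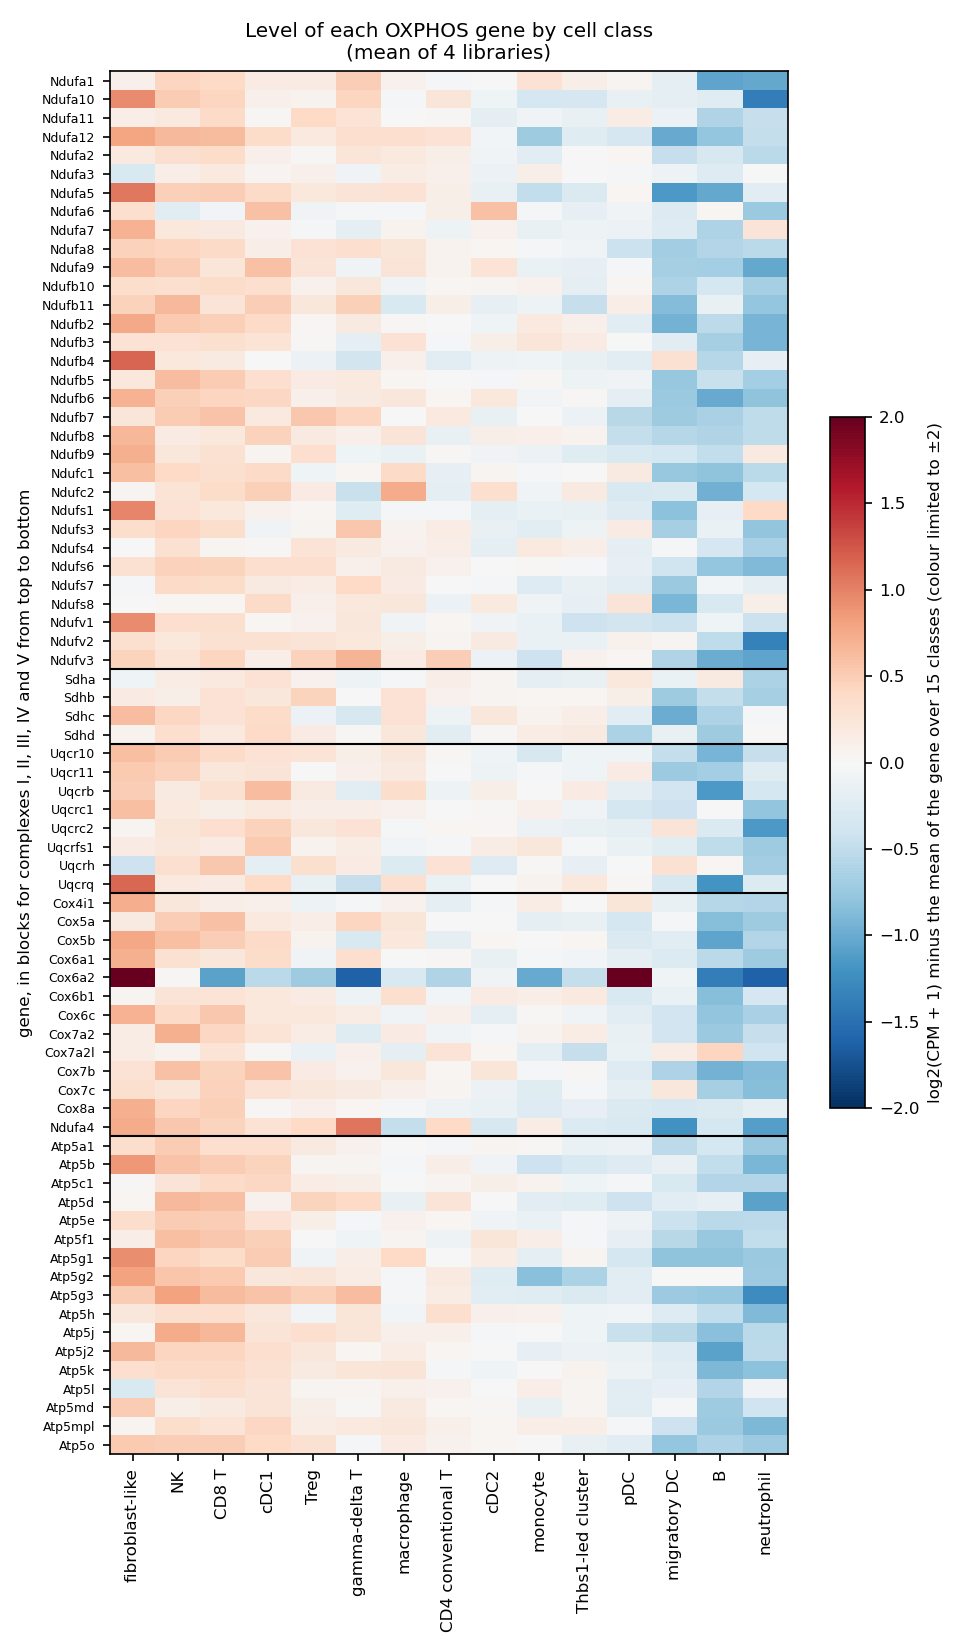
Level of 74 of the 75 members that average at least 10 CPM (rows, grouped by complex) in 15 cell classes (columns, in order of the summed level), as log2(CPM + 1) minus the gene's own mean over the classes, from the mean of 4 libraries. Most rows run from red at the left to blue at the right; Cox6a2 in pDC, Ndufa4 in gamma-delta T cells and Cox7a2l in B cells depart from it.

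Complex I was represented throughout, with Ndufc2, an accessory subunit of the membrane arm, as its member of highest mean CPM. Ndufc2 stood at 334 ± 11 CPM in macrophages and 102 ± 7 CPM in B cells, with no overlap between libraries (325 to 349 CPM against 94.3 to 110 CPM). Ndufs4, an accessory subunit near the NADH-oxidising arm, ranged less, from 116 CPM in neutrophils to 227 CPM in NK cells. Ndufa10 (19.8 ± 10.0 CPM in neutrophils, 103 CPM in the fibroblast-like cluster) and Ndufa5 (22.8 ± 5.9 CPM in migratory dendritic cells, 108 CPM in the fibroblast-like cluster) were among the 5 members with the widest range, 2.33 and 2.20 on the log2 scale. Ndufa3 was the flattest of all, at 46.9 to 66.9 CPM over the classes, a range of 0.50. Ndufa2 was also among the 5 flattest, with a range of 0.91.

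A pair of complex I genes stood apart for their counts. Ndufa13, which encodes an accessory subunit, had 0 UMIs in all libraries. In the GENCODE vM21 annotation no exon of another gene overlaps it on its strand, and the annotation the files were counted with was not used here. Ndufs5 averaged 3.25 CPM and has 1 other annotated transcript that matches its last 300 bases at 95% identity or more over at least 90 bases. Such copies exist for 17 members, with 12 copies for Atp5l, and reads that match several genes can be lost in counting, so the levels of these 17 are uncertain.

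Complex II, succinate dehydrogenase, has no isoforms here and also serves the citric acid cycle. Sdha, the flavoprotein, was among the 5 flattest members (range 0.92), from 76.5 CPM in neutrophils to 146 CPM in cDC1 cells. It stood at 140, 136, 119 and 143 CPM in the B cells of the WT and then the cKO libraries, so B cells, low for most members, reached the cDC1 libraries (131 to 159 CPM) for this one. Sdhb, the iron-sulphur subunit, was highest in Treg cells (124 ± 7 CPM). The membrane anchor Sdhc ran from 33.9 ± 2.3 CPM in migratory dendritic cells to 106 CPM in the fibroblast-like cluster, and the other anchor, Sdhd, from 36.1 CPM in B cells to 78.1 ± 5.4 CPM in cDC1 cells.

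In complex III the highest mean levels were those of Uqcrh, the hinge protein, and Uqcrb. Uqcrh reached 541 ± 30 CPM in CD8 T cells and Uqcrb 333 ± 57 CPM in cDC1 cells; both have near-identical copies. Uqcrq, another small subunit, had the widest range of the complex (2.35 on the log2 scale), from 74.0 CPM in B cells to 380 ± 60 CPM in the fibroblast-like cluster. In complex V, Atp5g2, 1 of 3 genes for the same mature c-ring subunit, had the highest mean. It stood at 502 ± 34 CPM in NK cells and 191 ± 17 CPM in monocytes, and the libraries did not overlap (457 to 533 CPM against 170 to 205 CPM). Atp5g2 (593 ± 42 CPM) and Atp5g1 (206 CPM) were both highest in the fibroblast-like cluster, and Atp5g3 in NK cells (283 ± 21.5 CPM). Atp5g1 was lowest in migratory dendritic cells (60.8 ± 6.1 CPM) and Atp5g3 in neutrophils (67.3 ± 36.0 CPM). Atp5h, a stalk subunit, ran from 174 CPM in neutrophils to 407 CPM in CD8 T cells, and Atp5l was among the 5 flattest (range 0.91).

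Complex IV holds the tissue-restricted isoforms, and 1 of them marked a single immune class. Cox6a2 encodes the heart and muscle form of subunit VIa and Cox6a1 the widespread form. In pDC, antiviral cells that make type I interferon, Cox6a2 stood at 336 CPM in WT-1, 523 in WT-2, 460 in cKO-1 and 373 in cKO-2. Its mean was 0 to 2.14 CPM in the other 13 immune classes and 14.9 ± 6.6 CPM in the fibroblast-like cluster. Every pDC library was thus far above every library of any other class. The gene was left out of the clustering, so it did not help to draw the pDC class; it was also the only member among the 2000 most variable genes.

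**Figure D3:**
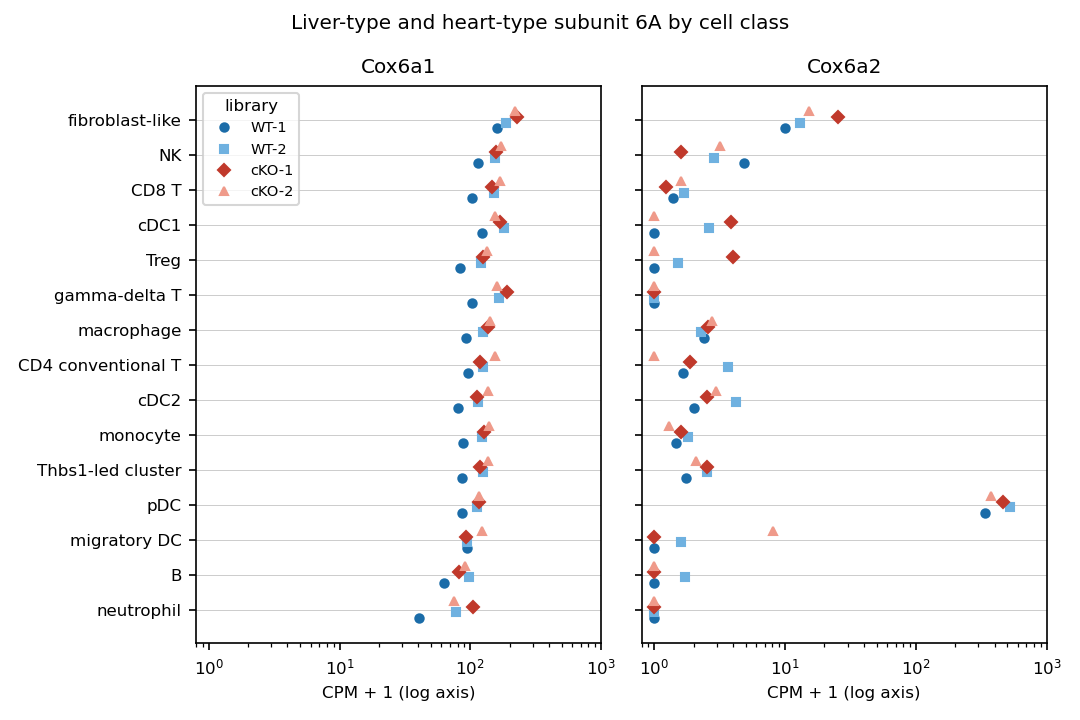
Cox6a1 (left) and Cox6a2 (right) in 15 cell classes, as CPM + 1 on a log axis, with 1 point per library. Cox6a1 lies between 39.9 and 226 CPM in every class and library, while Cox6a2 lies at 336 CPM or above in the 4 pDC libraries and at 24.2 CPM or below in the others.

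A Cox6a2 UMI was found in 604 of 799 pDC (75.6%, 95% Wilson interval 72.5 to 78.5%, counting error only). In NK cells, of like median depth (12211 against 11958 UMIs per cell), the share was 1.51% (1.14 to 2.01%). It was 0.07% in B cells and 0 of 313 gamma-delta T cells, which allows a share of up to 0.958%. That limit is 3 counts in 313 cells and not a Wilson bound. Cox6a1 was also counted in pDC, at 84.9, 112, 116 and 116 CPM, and Cox6a2 stood at 3.95 ± 0.60 times its level there (mean ± SD of 4 libraries), a ratio whose denominator is a gene with a near-identical copy. The cKO and WT pDC did not differ in Cox6a2 beyond their spread (log2 fold change -0.03 ± 0.17 SE, edgeR adjusted p = 0.994).

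The other paralog pairs were nearly one-sided. Cox4i1, the common form of subunit IV and the member of highest mean CPM, ran from 308 ± 64 CPM in neutrophils to 766 ± 50 CPM in the fibroblast-like cluster, and Cox8a, second in the complex, from 338 ± 43 CPM in migratory dendritic cells to 691 ± 66 CPM in the fibroblast-like cluster. Cox4i2, a form of lung and smooth muscle, had 362 UMIs in all, Cox8b had 1 and Cox8c, a testis form, had 0. Cox7a1, the muscle form, peaked at 2.22 ± 0.49 CPM in NK cells while Cox7a2 reached 462 ± 40 CPM in the same cells. Cox6b2, a testis form of subunit VIb, was less even, at 13.4 ± 2.1 CPM in cDC2 cells and 0.46 CPM in the fibroblast-like cluster. It had a UMI in 11.2% of cDC2 cells, 8.42% of cDC1 cells, 7.84% of monocytes, 2.67% of NK cells and 0.20% of B cells. These shares also depend on depth, at a median of 12608 UMIs per cell in cDC2 cells, 12211 in NK cells and 3173 in B cells. Cox6b1 ran from 177 ± 10 CPM in B cells to 399 ± 24 CPM in macrophages.

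A pair of complex IV members went against the common order. Cox7a2l, which helps to join complexes III and IV into supercomplexes, was highest in B cells, at 196, 217, 214 and 206 CPM, above each macrophage library (126 to 146 CPM), although B cells were lowest for 27 other members. Ndufa4, once counted with complex I and now placed in complex IV, was highest in gamma-delta T cells, at 351 and 463 CPM in WT and 342 and 347 CPM in cKO, and lowest in migratory dendritic cells (76.8 ± 21.0 CPM). Its tissue-restricted paralog Ndufa4l2, a hypoxia-induced gene, had 55 UMIs in all, most of them in the fibroblast-like cluster.

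The study asks what loss of Trim25 does, and for these genes no change passed the test in any class. Summed UMIs per library and class were compared with edgeR's quasi-likelihood test in 15 single classes and in all T cells, adjusted over all genes tested (Benjamini-Hochberg, threshold 0.05). Between 66 members (neutrophils) and 79 (macrophages) passed the filter on low counts, 4 members passed it in no class, and 0 members rose or fell in any of the 16 fits. The smallest adjusted p was 0.473, for Uqcrc1, a core protein of complex III, in pDC. The share of all tested genes that passed was 0.818% in pDC, 0.17% in conventional CD4 T cells, 0.106% in Treg cells, 0.0615% in CD8 T cells, 0.047% in B cells, 0.0277% in the fibroblast-like cluster, 0.0171% in cDC2 cells and 0.00818% in all T cells. It was 0% in the other 8 classes, so a count of 0 members is near the background everywhere. At an unadjusted p under 0.05 there were 30 member results among 1130 (2.65%), against 6.40% over all genes in the same 15 classes. DESeq2 also called 0 members in each class. The same test was run on simulated libraries with the spread of each gene in these data, in which some genes were changed on the log2 scale. Each gene was drawn independently, so a shift shared by the members of a library was not simulated. In macrophages it recovered 23.5% of 98 genes changed by 0.5 and 72.7% of 99 changed by 1. In conventional CD4 T cells it recovered 5.21% and 52.1% of 96 genes each, and in all T cells 23.23% and 74.75% of 99 genes each. False calls made up 8.65% of the calls in macrophages, 6.78% in conventional CD4 T cells and 7.62% in all T cells. In the real libraries 0 of 13142 macrophage genes passed, and recovery with fewer changed genes was not tested.

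**Figure D4:**
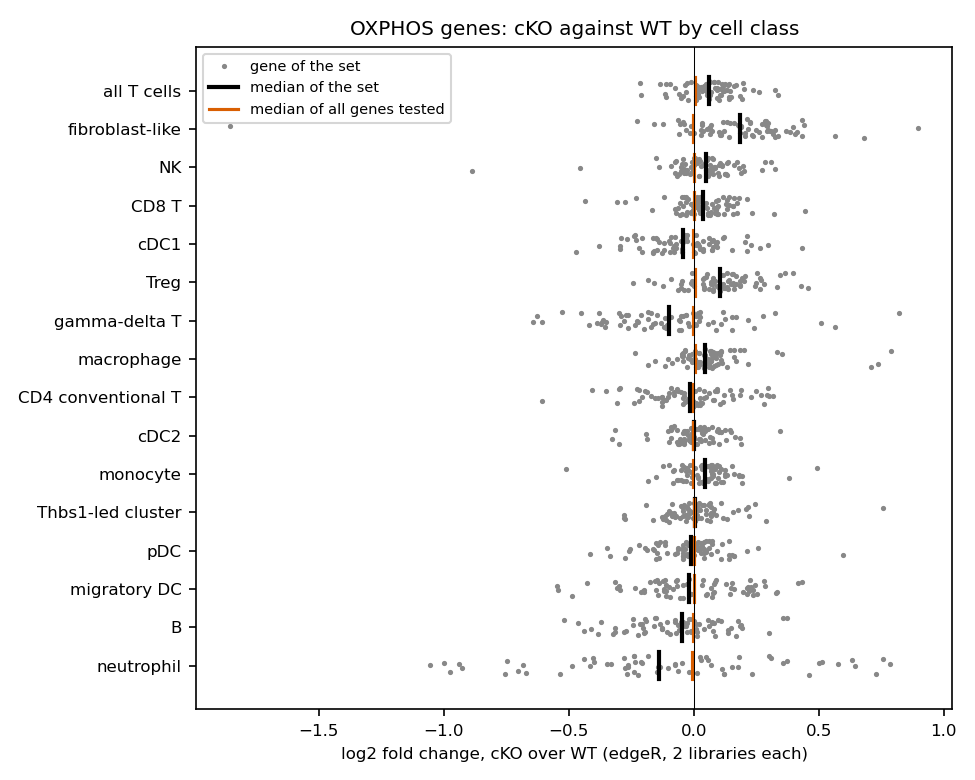
log2 fold change of cKO over WT (x axis) for each tested member (grey points) in all T cells and 15 cell classes, with the median of the members (black) and of all genes tested (orange). Medians of the members lie between -0.14 and 0.18, and no point passed the adjusted threshold.

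The members' medians stayed close to 0. They were 0.11 in Treg cells (58 of 74 above 0), 0.06 in all T cells (61 of 77), 0.05 in macrophages (59 of 79), 0.05 in NK cells (51 of 78), 0.05 in monocytes (54 of 78), 0.04 in CD8 T cells (50 of 76) and -0.02 in conventional CD4 T cells (34 of 74). The widest were 0.18 in the fibroblast-like cluster (65 of 77), -0.14 in neutrophils (26 of 66) and -0.10 in gamma-delta T cells (25 of 74). The median over all genes tested was within 0.01 of 0 in each class. The fibroblast-like cluster also had the most members at an unadjusted p under 0.05, 9 of 77, or 11.7% against 6.16% of all genes there; its 404 cells in cKO-1 outnumbered the 91 to 189 of the other libraries. Other lists stood higher in that cluster, with 82 of 82 cytosolic ribosomal genes above 0 (median 0.30, 38 at an unadjusted p under 0.05), 14 of 14 proliferation genes (median 0.39) and 13 of 14 glycolytic genes (median 0.38).

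In T cells the members with the smallest p are given as values that did not pass. Ndufb3, a membrane-arm subunit of complex I, stood in Treg cells at 87.3 and 88.8 CPM in WT and at 123 and 116 CPM in cKO, without overlap (log2 fold change 0.46 ± 0.17 SE, edgeR adjusted p = 0.672). Cox5b, a zinc-binding subunit of complex IV, stood there at 160 and 183 CPM in WT and at 203 and 241 CPM in cKO (0.40 ± 0.15, adjusted p = 0.692). The groups did not overlap for either gene, but with 2 libraries each an exact permutation test cannot go below p = 0.333. In conventional CD4 T cells Atp5k, a small membrane subunit of the ATP synthase, was at 48.3 and 46.3 CPM in WT and 33.5 and 28.0 CPM in cKO (-0.61 ± 0.26, adjusted p = 0.565). Atp5a1, the alpha subunit of the ATP synthase, went the other way there, from 196 and 198 CPM to 240 and 249 CPM (0.32 ± 0.15, adjusted p = 0.626). In CD8 T cells Ndufb4, another membrane-arm subunit, was at 49.6 and 58.3 CPM in WT and 43.2 and 43.5 CPM in cKO (-0.31 ± 0.13, adjusted p = 0.569). These genes differed from class to class; Cox6a1 in all T cells and Ndufa4 in CD8 T cells are given below.

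In macrophages the smallest p fell on genes of very low level. Ndufs5 stood at 2.11 and 3.01 CPM in WT and 4.85 and 3.75 CPM in cKO (log2 fold change 0.74 ± 0.28 SE, edgeR adjusted p = 0.734). Cox4i2 stood at 1.45 and 1.33 CPM in WT and 2.26 and 2.53 CPM in cKO (0.79 ± 0.31, adjusted p = 0.734). In NK cells Uqcrc1 stood at 37.7 and 44.3 CPM in WT and 46.2 and 50.8 CPM in cKO (0.27 ± 0.12, adjusted p = 0.712). In monocytes Atp5d, the delta subunit of the ATP synthase, was at 120 and 137 CPM in WT and 145 and 140 CPM in cKO (0.19 ± 0.11, adjusted p = 0.999). Ndufa4l2 in the fibroblast-like cluster, named after its values were seen, had the lowest fold change of the set (-1.85 ± 0.65, edgeR adjusted p = 0.697). It stood at 5.43 and 5.84 CPM in WT and 1.47 and 1.45 CPM in cKO. These UMIs lay in only 11 of 828 cells. The share of cells with a UMI was not lower in cKO, at 1.24% and 2.08% against 1.10% and 1.06% in WT.

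Of the members above 10 CPM, 12 had a fold change above 0 in at least 12 of the 15 classes and 4 had one below 0 in at least 12. Cox7c, a small complex IV subunit, was above 0 in 15, and Atp5b, the catalytic beta subunit of the ATP synthase, in 14. Ndufs1, Ndufa6 and Cox7b were each above 0 in 1. Cox6a1 and Ndufa4 are described because they passed when a library was left out. The log2 fold change of Cox6a1 stood above 0 in 15 of 15 classes (median 0.32). In all T cells it was at 97.4 CPM in WT-1, 142 in WT-2, 138 in cKO-1 and 160 in cKO-2 (0.34 ± 0.16 SE, edgeR adjusted p = 0.614). In macrophages it was at 91.3, 123, 135 and 140 CPM in the same order (0.35 ± 0.14, adjusted p = 0.740), in monocytes at 87.0, 123, 126 and 139 CPM (0.38 ± 0.16, adjusted p = 0.999) and in NK cells at 113, 155, 156 and 172 CPM (0.32 ± 0.14, adjusted p = 0.745). WT-1 was the lowest library in 14 of the 15 classes. Without WT-2 the gene passed in all T cells (0.65 ± 0.14, adjusted p = 0.000637), macrophages (0.60 ± 0.11, adjusted p = 0.0308), NK cells (0.60 ± 0.12, adjusted p = 0.000117) and the Thbs1-led cluster (0.59 ± 0.14, adjusted p = 0.00727), with WT-1 as the only WT library. Under that setting 1.16% of all genes passed in all T cells, 0.42% in macrophages, 0.87% in NK cells and 0.859% in the Thbs1-led cluster, so 1 member of about 80 is near the background.

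**Figure D5:**
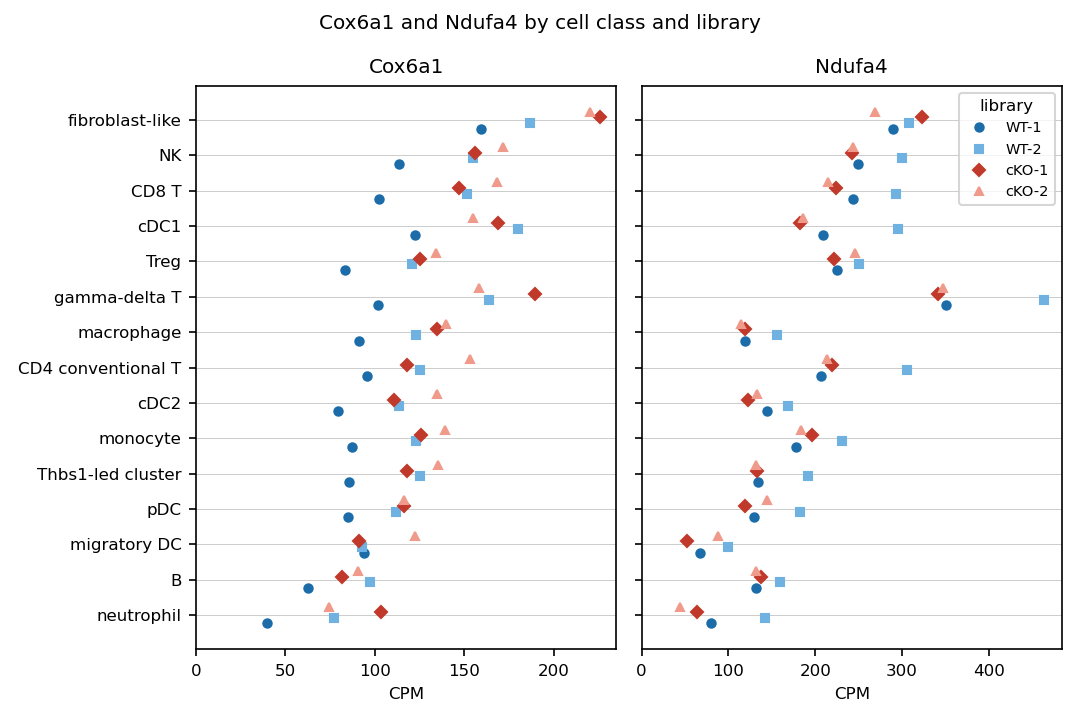
Cox6a1 (left) and Ndufa4 (right) in CPM (x axis) by cell class and library. WT-1 is the lowest library for Cox6a1 in 14 of 15 classes, and WT-2 is the highest for Ndufa4 in 14 of 15.

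Ndufa4 had a median log2 fold change of -0.24 and values above 0 in 2 of 15 classes. In CD8 T cells it was at 243 CPM in WT-1, 293 in WT-2, 224 in cKO-1 and 215 in cKO-2 (-0.28 ± 0.12 SE, edgeR adjusted p = 0.575). In macrophages it was at 119, 155, 119 and 115 CPM in the same order (-0.24 ± 0.13, adjusted p = 0.837), and in Treg cells at 224, 251, 222 and 246 CPM (0.00 ± 0.14, adjusted p = 0.9996). WT-2 was the highest library in 8 classes for Ndufs1, and in 14 of the 15 for Ndufa6, Cox7b and Ndufa4. Without WT-1 the gene passed in the Thbs1-led cluster (-0.52 ± 0.13, adjusted p = 0.00743), with WT-2 as the only WT library, and 2.94% of all genes passed there. The 15 classes come from the same 4 libraries, so they are not independent of each other.

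The summed level differed between the WT libraries in every class. The summed level was higher in WT-2 than in WT-1 in 15 of 15 classes, by a median of 0.19 on the log2 scale (0.08 in the fibroblast-like cluster to 0.47 in neutrophils). WT-1 was the lowest library in 13 classes and WT-2 the highest in 12, and both cKO libraries lay between them in 10. The ratio of the cKO mean to the WT mean ran from -0.13 to 0.11 on the log2 scale, with a median of 0.00; it was 0.11 in the fibroblast-like cluster, above the 0.08 between the WT libraries there. The cKO libraries differed too, by a log2 ratio of cKO-2 to cKO-1 down to -0.29 in neutrophils. Of the 75 members above 10 CPM, 54 were higher in WT-2 than in WT-1 in at least 12 of 15 classes and 0 were lower in at least 12. Genes of the translation machinery had the same order, with cytosolic ribosomal genes higher in WT-2 in 15 of 15 classes (median log2 0.14) and mitochondrial ribosomal genes in 15 of 15 (0.14). Mitochondrially encoded subunits were higher in 13 of 15 (0.04), genes of the citric acid cycle in 10 of 15 (0.02) and glycolytic genes in 6 of 15 (-0.03). The part of library preparation in this was not tested.

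Since the deletion is placed in T cells, the genotype effect in all T cells was set against that in macrophages with an interaction term. Of 79 members tested, 0 passed, against 0.0291% of all genes (4 of 13758), and 0 members had an unadjusted p under 0.05. The median difference of the members was 0.02 on the log2 scale, against 0.00 over all genes, and the smallest adjusted p of a member was 0.789. With RLE scaling 0 of 79 members passed, against 0.0218% of all genes. With monocytes in place of macrophages 0 of 79 members passed, against 0.0221% of all genes.

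Among the genes around the complexes, 1 of 13 mitochondrially encoded subunits rose, in Treg cells and in pDC, and 0 fell. All genes passed at 0.106% in Treg cells and 0.818% in pDC. Of the 13 subunits, 12 stood above 0 in Treg cells (median 0.27) and 13 in pDC (median 0.14). In Treg cells 5 of the 13 had an unadjusted p under 0.05, against 5.83% of all genes, and in pDC 1 did. The median of this list ran from 0.01 to 0.27 over the single classes. mt-Nd2, a complex I subunit, stood in Treg cells at 515 and 495 CPM in WT and 805 and 741 CPM in cKO (0.64 ± 0.12 SE, edgeR adjusted p = 0.0272). In pDC it stood at 976 and 861 CPM in WT and 1299 and 1362 CPM in cKO (0.56 ± 0.12, adjusted p = 0.0285). Over the processing alternatives the fold change of mt-Nd2 was 0.57 to 0.71 in Treg cells and 0.48 to 0.65 in pDC, but the call was lost in some. With predicted doublets kept the adjusted p was 0.0848 in Treg cells and 0.453 in pDC, where 0 of 9833 genes passed in place of 78. The call was also lost in Treg cells without cKO-1 (0.126), at clustering resolution 2 (0.0539) and at 10% mitochondrial UMIs (0.1002), and in pDC without WT-2 (0.115) and with the members among the clustering genes (0.0855). Among the 45 assembly factors, 13 citric acid cycle genes, 6 carriers and channels, 12 regulators of mitochondrial biogenesis, 14 glycolytic genes, 78 mitochondrial ribosomal genes, 85 cytosolic ribosomal genes, 14 proliferation genes and the 5 remaining subunits and electron carriers, 0 rose and 0 fell in any single class. Glycolytic genes nevertheless stood mostly above 0 in some classes, with 14 of 14 in monocytes (median 0.19) and the Thbs1-led cluster (0.25). In macrophages (0.24), CD8 T cells (0.23) and NK cells (0.23) 13 of 14 did. In macrophages 7 of the 14 had an unadjusted p under 0.05, against 6.47% of all genes there. Fewer stood above 0 in pDC (10 of 14, median 0.07), migratory dendritic cells (8 of 13, 0.05), cDC1 cells (7 of 14, 0.0005) and B cells (3 of 14, -0.12).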

How the data were processed

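Droplet 3′ libraries of CD45+ tumour cells from WT and cKO mice (2 libraries each) were used. Per the submitters' processing notes the reads were processed with Cell Ranger and STAR on mm10; no version or annotation is named there. The deposited matrices hold raw UMI counts per gene and barcode, with at least 500 UMIs per barcode. Barcodes were dropped below 300 genes or 500 UMIs, or above 15% mitochondrial UMIs, which left 39906 cells. Scrublet's automatic threshold marked 0 cells, so cells scoring above 0.2 and clusters with a median above 0.1 were set aside as mixed droplets (444 to 784 per library). Cells were clustered with scanpy 1.11.5 and leidenalg 0.10.2 (30 components, 15 neighbours, resolution 1) on 1999 variable genes without the members, and T and NK cells again alone. Clusters were named from marker genes; a check of Cd4 against Cd8a was added after values were seen. The counts of each class were added up within a library (at least 20 cells in each library, which left out mast cells or basophils) and tested with edgeR 4.0.16 (quasi-likelihood, TMM, filterByExpr) without a replicate block; DESeq2 1.42.0, other scalings, filters, clusterings and left-out libraries were alternatives. The test was checked on simulated counts. CPM are UMIs per 1000000 UMIs of the class. The members and gene lists were chosen with earlier results of these data known. Named genes were the 2 highest of each complex, the 2 of smallest p in 7 main classes, the isoform pairs, complex II, and the 5 widest and 5 flattest over classes. 1 gene that this rule names is not reported here. The NRF1 and YY1 letters were each shortened by 1 base after the counts with the longer forms were seen. Near-identical copies were sought with blastn 2.17.0. Counts depend on depth: a median of 7796 to 10017 UMIs per cell limits what single cells show, while class sums are limited by the 2 libraries per genotype.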

Additional observations from a re-analysis of the deposited data

Results flagged for a closer look

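A signal outside the compared classes was looked at because its cells had no class name. The unnamed T or NK cluster led by Gzmd and Spp1 stood at 20577 CPM summed over the 84 genes (21493 and 21149 CPM in WT, 19609 and 20056 CPM in cKO), the highest of all clusters and above every named class. It held 118 to 183 cells per library at a median of 2061 UMIs per cell, against 21716 in the named NK cluster led by Gzmc, which stood at 14928 ± 668 CPM. Low depth moved with the high level here as in the C1qa-led macrophages, whereas in the named CD8 and NK clusters the higher level came with higher depth. Proliferation genes were also higher, at 2478 ± 364 CPM against 1025 ± 104 CPM in the Gzmc-led NK cluster. In the C1qa-led macrophages they stood at 2585 ± 323 CPM, against 643 ± 50 CPM in the Itga9-led ones. Cytosolic ribosomal genes were higher too, at 243652 ± 8699 CPM in the Gzmd-led cluster against 182601 ± 7220 CPM in the Gzmc-led one. The high level of the members is thus one by share of UMIs. The part of depth, of proliferation or of the ribosomal share was not tested.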

How the results depend on the processing

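0 members were called in the 16 fits with DESeq2, with RLE scaling, without the filter on low counts or with doublets kept, nor in those that could be run with other clusterings or at most 10% mitochondrial UMIs. Leaving out 1 library at a time gave 0 to 1 members called in NK cells, all T cells, macrophages and the Thbs1-led cluster (Cox6a1 without WT-2, and Ndufa4 without WT-1 in the Thbs1-led cluster only); the lone WT library is then assumed to vary like the cKO pair. The members' median ran over these from -0.072 to 0.17 in CD8 T cells, -0.050 to 0.20 in all T cells, -0.043 to 0.17 in macrophages and -0.12 to 0.15 in the Thbs1-led cluster. Ndufa4 ran from -0.24 to 0.13 in monocytes, -0.28 to 0.025 in NK cells, -0.50 to 0.084 in conventional CD4 T cells and -0.093 to 0.10 in Treg cells, and Cox6a2 in pDC from -0.31 to 0.34. Without a left-out library, Ndufa4 in Treg cells was -0.00045 with RLE scaling, -0.0053 without the filter, -0.00069 with DESeq2, -0.069 at clustering resolution 2, -0.016 with the members among the clustering genes and -0.052 with at most 10% mitochondrial UMIs, against 0.00026.

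The labels do not say whether libraries of the same number belong together. Deviations of same-numbered libraries correlated at -0.17 (monocytes) to 0.08 (all T cells) over genes. Over the tested members alone the correlation ran from -0.71 (NK cells) to 0.14 (pDC). It was -0.48 in CD8 T cells and -0.30 in all T cells. With the replicate block 0 members were called in each class, and Ndufa4 in Treg cells was -0.00037. Counts over all genes moved from 1 to 194 in all T cells, 0 to 70 in NK cells, 78 to 212 in pDC, 4 to 52 in B cells, 10 to 46 in Treg cells, 2 to 28 in cDC2 cells, 0 to 24 in migratory dendritic cells and 3 to 15 in the fibroblast-like cluster. The crossed pairing, added after seeing the data, gave 144 genes in monocytes, 144 in all T cells, 129 in pDC, 75 in CD8 T cells and 57 in the Thbs1-led cluster, 0 members in each class, and 0.0084 for Cox6a2 in pDC.

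Class levels relative to the mean of the classes (log2) moved without ribosomal genes in the total to 0.50 in the fibroblast-like cluster, 0.47 in NK cells, 0.43 in CD8 T cells, 0.062 in conventional CD4 T cells, -0.13 in monocytes, -0.14 in the Thbs1-led cluster, -0.14 in pDC, -0.37 in migratory dendritic cells and -0.51 in B cells. As a mean of log2(CPM + 1) they moved to 0.34 in NK cells, 0.32 in CD8 T cells, 0.13 in macrophages, 0.033 in cDC2 cells, -0.045 in monocytes, -0.037 in the Thbs1-led cluster, -0.053 in pDC and -0.39 in migratory dendritic cells. Other moves were pDC to -0.075 without mitochondrially encoded genes and -0.026 with members among the clustering genes, macrophages to 0.0043 at resolution 2, cDC2 cells to 0.027 at 10% mitochondrial UMIs and 0.036 with members among the clustering genes, migratory dendritic cells to -0.38 at 10%, and B cells to -0.49 with doublets kept. The cause was not tested. The Thbs1-led cluster could not be fitted at resolution 2 or at 10%, nor cDC1 cells at 10% or with the members among the clustering genes.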
